A study of Mus musculus with 6 samples.

Results

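Cytochrome P450 genes of mouse olfactory epithelium were compared between the occluded and the open side of the nose 5 days after one nostril had been closed. The members were the genes whose probe set carried exactly 1 symbol of the form Cyp, digits, letter, digits, and these were 45 of the 14860 genes measured by a probe set with 1 symbol. None of the 45 had more than 1 such probe set. They fell into 13 families, named by the number after Cyp, of which family 2 held 19 genes, family 4 held 8 and family 1 held 3. Another 24 probe sets carried several symbols with at least 1 P450 among them, so that the closely related Cyp2a4 and Cyp2a5, the Cyp4a12 genes and most Cyp2c and Cyp3a genes could not be assigned a value and were not analysed here. Cyp51 and Cyp2ab1 have symbols of another form and were not members.

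The tissue was olfactory epithelium of 3 C57Bl/6 mice, with 3 arrays of total RNA from the occluded side, ipsilateral to the closed nostril, and 3 from the contralateral side. All mice had unilateral naris occlusion, and the labels state that closure lowered odour stimulation on the occluded side and raised it on the contralateral one, so no array came from an untreated nose. Array signals were log2 values after RMA, a method that corrects background, equalises arrays and combines the probes of a gene; a log2 difference of 1 is a 2-fold difference. The labels call the contralateral side the control and do not tie arrays to mice, so a p-value here reflects only how much the 6 arrays varied. The markers of mature olfactory neurons were present, with Omp, the olfactory marker protein, between 13.61 and 13.74 on the occluded side and between 13.51 and 13.64 on the contralateral side. Over the 8 of 9 such markers measured, the median log2 difference, occluded minus contralateral, was 0.16, or 0.08 with each array centred on its median. Of these 8, 7 had a difference above 0. In 4 all occluded arrays lay above all contralateral ones, beside 7.49% of all probe sets. Occluded replicate 1 was least like the rest (correlation across probe sets 0.977 to 0.983 with the other arrays), and 3 gland secretion genes differed widely between arrays of the same side. In bulk tissue, fewer cells of a type and less RNA per cell cannot be told apart.

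Cytochromes P450 are haem-containing monooxygenases that insert an oxygen atom into their substrates, with electrons passed on from NADPH by P450 oxidoreductase and cytochrome b5 in the endoplasmic reticulum, or by ferredoxin in mitochondria. The nasal mucosa is rich in them: supporting (sustentacular) cells and Bowman's glands oxidise inhaled chemicals and odorants. Families 1 to 3 act mainly on foreign compounds, family 4 on fatty acids, and the higher families on sterols, steroid hormones, vitamin D and retinoic acid.

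The 250 bases before the RefSeq start (build GRCm38.p6) are shown for Cyp1a1 and Cyp1a2, neighbours on chromosome 9 that are both induced through the aryl hydrocarbon receptor but differed in spread between arrays, and for Cyp2e1, an ethanol-inducible enzyme of nasal mucosa and liver. Each runs from 5′ to 3′ on the strand of the gene. Capitals mark the xenobiotic response element core GCGTG, bound by the aryl hydrocarbon receptor with Arnt, and the TATA box TATAAA, searched on both strands.
Cyp1a1: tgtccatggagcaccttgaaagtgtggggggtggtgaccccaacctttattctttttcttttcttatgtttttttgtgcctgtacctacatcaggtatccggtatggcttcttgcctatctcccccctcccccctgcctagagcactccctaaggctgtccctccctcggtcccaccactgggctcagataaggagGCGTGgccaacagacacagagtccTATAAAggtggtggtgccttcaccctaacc
Cyp1a2: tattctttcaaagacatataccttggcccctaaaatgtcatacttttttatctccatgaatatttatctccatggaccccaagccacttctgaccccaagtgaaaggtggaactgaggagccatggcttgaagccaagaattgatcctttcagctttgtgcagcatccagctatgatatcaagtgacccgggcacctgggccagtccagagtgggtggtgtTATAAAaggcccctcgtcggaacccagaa
Cyp2e1: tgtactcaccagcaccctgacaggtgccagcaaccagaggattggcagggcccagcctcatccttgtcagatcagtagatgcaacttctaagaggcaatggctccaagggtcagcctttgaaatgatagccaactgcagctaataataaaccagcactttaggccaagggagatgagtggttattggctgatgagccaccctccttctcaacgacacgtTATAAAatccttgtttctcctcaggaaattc
The windows lie at chr9:57697363-57697612 on the plus strand for Cyp1a1, chr9:57683656-57683905 on the minus strand for Cyp1a2 and chr7:140763569-140763818 on the plus strand for Cyp2e1. RefSeq promoters were at hand for 32 of the 45 genes, in 36 windows. A gene can have several windows, and those of Cyp4f14 overlap, so windows are not independent. The GCGTG core was found in 8 of these windows, or 22.2%, against 28.2% of 32851 windows of all genes, and TATAAA in 11, or 30.6%, against 12.4%. The NFI motif TTGGC, on either strand, was found in 25 windows of 23 genes, or 69.4% of the windows, against 41.5% of all windows. Nuclear factor I proteins are known to act on nasal P450 promoters in the rat. In Cyp1a1 an NFI motif begins directly after the GCGTG core. Of enzymes known from nasal mucosa, Cyp2e1 held 4 NFI motifs and Cyp1a2 held 2. Cyp2f2 and Cyp4b1 held 0, and Cyp2g1 had no window. These are matches of letters, and a match is not evidence of binding. By RefSeq order 27 of 44 located members lie next to another P450 gene.

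No P450 gene passed the test between the sides. Adjusted over the whole array, limma's p lay between 0.823 and 0.998 for the 45 genes, and 0 passed at 0.05, as did 0% of the 23332 probe sets. At an unadjusted p under 0.05 there were again 0 of 45, beside 5.28% of all probe sets, and the smallest unadjusted p was 0.0579. The median log2 difference, occluded minus contralateral, was 0.03 over the members and 0.06 over all probe sets, with 35 of 45 members and 64.8% of all probe sets above 0. The sign of the members' median turned with each array centred on its median (-0.05) and with quantile normalization once more (-0.01), and it was 0.01 after cyclic loess. These 3 scalings bring the arrays to a common level, which moves the median of all probe sets near 0 by construction. It was -0.02, -0.006 and -0.0006 under them, so it cannot show whether the turn is particular to the P450 genes. As each array was left out, the members' median ran from 0.01 to 0.06. That of all probe sets ran from 0.02, without occluded replicate 1, to 0.08, without occluded replicate 2. The mean log2 value over the members was between 7.00 and 7.09 on the occluded arrays and between 6.95 and 7.02 on the contralateral arrays, so the sides overlapped.

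The arrays limited each gene's difference to a range. All 45 of the 95% intervals held 0 and lay within 1 log2 unit of 0, that is, within 2-fold either way, and 38 lay within 0.5, or 1.41-fold. The 7 wider ones belonged to Cyp1a1, Cyp2b10, Cyp3a13, Cyp4b1, Cyp7b1, Cyp8b1 and Cyp20a1. These intervals were made for 1 gene at a time and do not show that the sides were alike. The levels had a floor: the 90th percentile of 29 measured genes not thought to be expressed in nasal tissue was 7.53, and 18 of the 45 members had a mean above it. For the other 27 a small difference is not well measured.

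**Figure D1:**
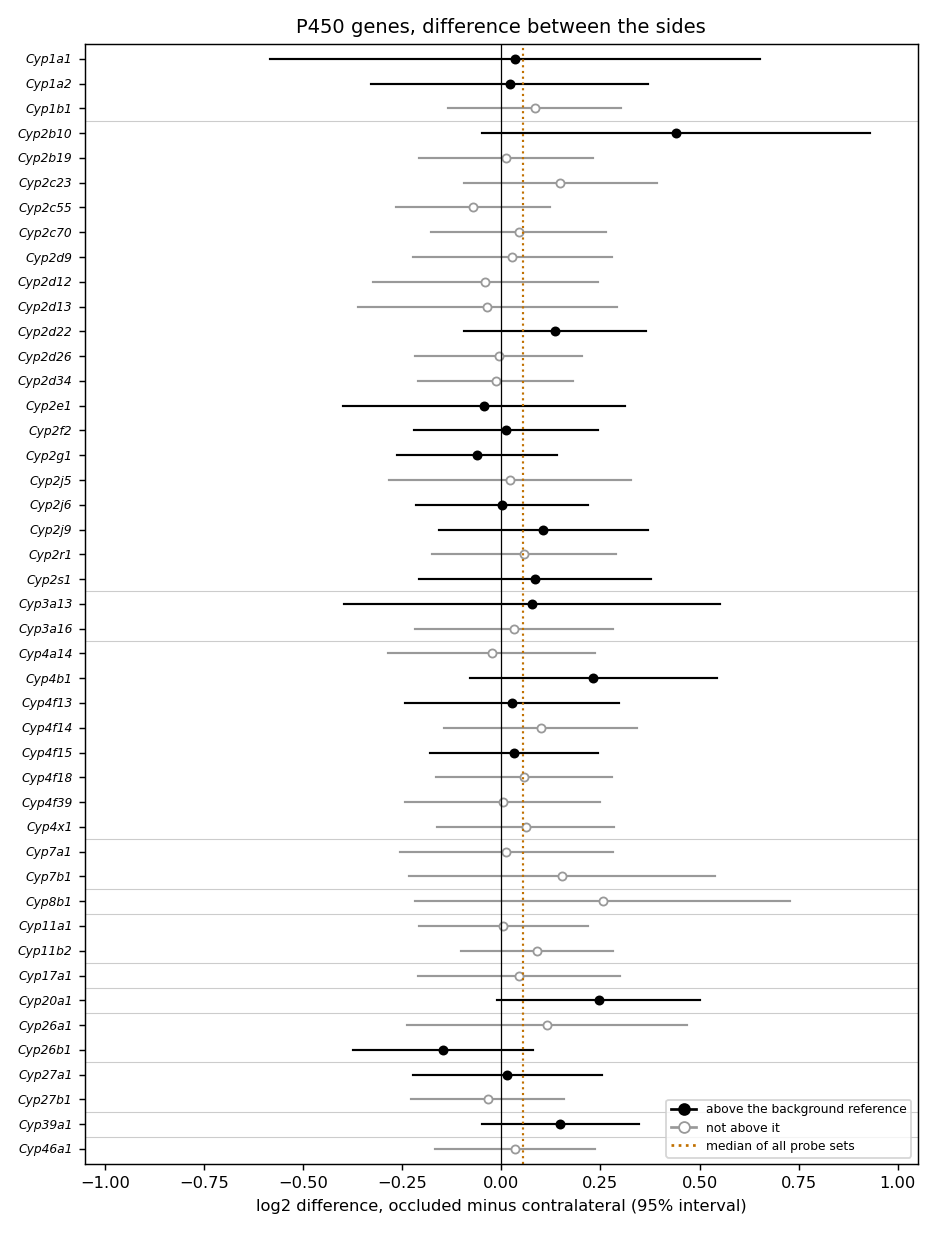
Log2 difference (occluded minus contralateral) of each of the 45 P450 genes with its 95% interval from limma, grouped by family. Filled points are the 18 genes above the background reference and open grey points the other 27, and the dotted line is the median of all probe sets; every interval crosses 0 and none reaches 1 log2 unit.

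Among the enzymes known from nasal mucosa, 5 of 7 had a probe set of their own, and all 5 were above the background reference. Cyp2g1, an enzyme found almost only in olfactory mucosa, where it oxidises steroids, had log2 values of 13.49, 13.35 and 13.37 on the occluded side, against 13.48, 13.44 and 13.47 on the contralateral side. The 6 arrays spanned 0.14, and the sides overlapped. The log2 difference was -0.06, with a 95% interval from -0.26 to 0.14 (limma adjusted p = 0.871). Cyp2f2, which activates naphthalene and other small aromatics in airway and nose, was at 13.00, 12.97 and 13.07 on the occluded side, against 13.02, 12.86 and 13.11 on the contralateral side. Its difference of 0.01 had an interval from -0.22 to 0.25, and no side was separate. Both probe sets stayed within a span of 0.25 over all 6 arrays.

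Cyp1a2, which oxidises aromatic amines and caffeine, was at 10.41, 10.03 and 10.35 on the occluded side, against 10.42, 10.03 and 10.27 on the contralateral side. The lowest array on each side was replicate 2, and the difference was 0.02 (interval -0.33 to 0.37). Cyp2e1 was at 8.47, 8.03 and 8.56 on the occluded side, against 8.34, 8.43 and 8.41 on the contralateral side. Occluded replicate 2 lay below the other 5 arrays, and the difference was -0.04 (interval -0.40 to 0.31). Cyp4b1, which activates lung and nasal toxicants such as ipomeanol, was at 8.43, 8.30 and 8.11 on the occluded side, against 7.93, 7.97 and 8.26 on the contralateral side. Its difference was 0.23 (interval -0.08 to 0.55, adjusted p = 0.823), and contralateral replicate 3 lay within the occluded values. Over the 6 of 9 sustentacular markers measured, differences ran from -0.17 for Ermn to 0.20 for Krt18, a keratin of these cells, with 0 at an unadjusted p under 0.05. Their median was 0.06, or -0.01 without occluded replicate 1.

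**Figure D2:**
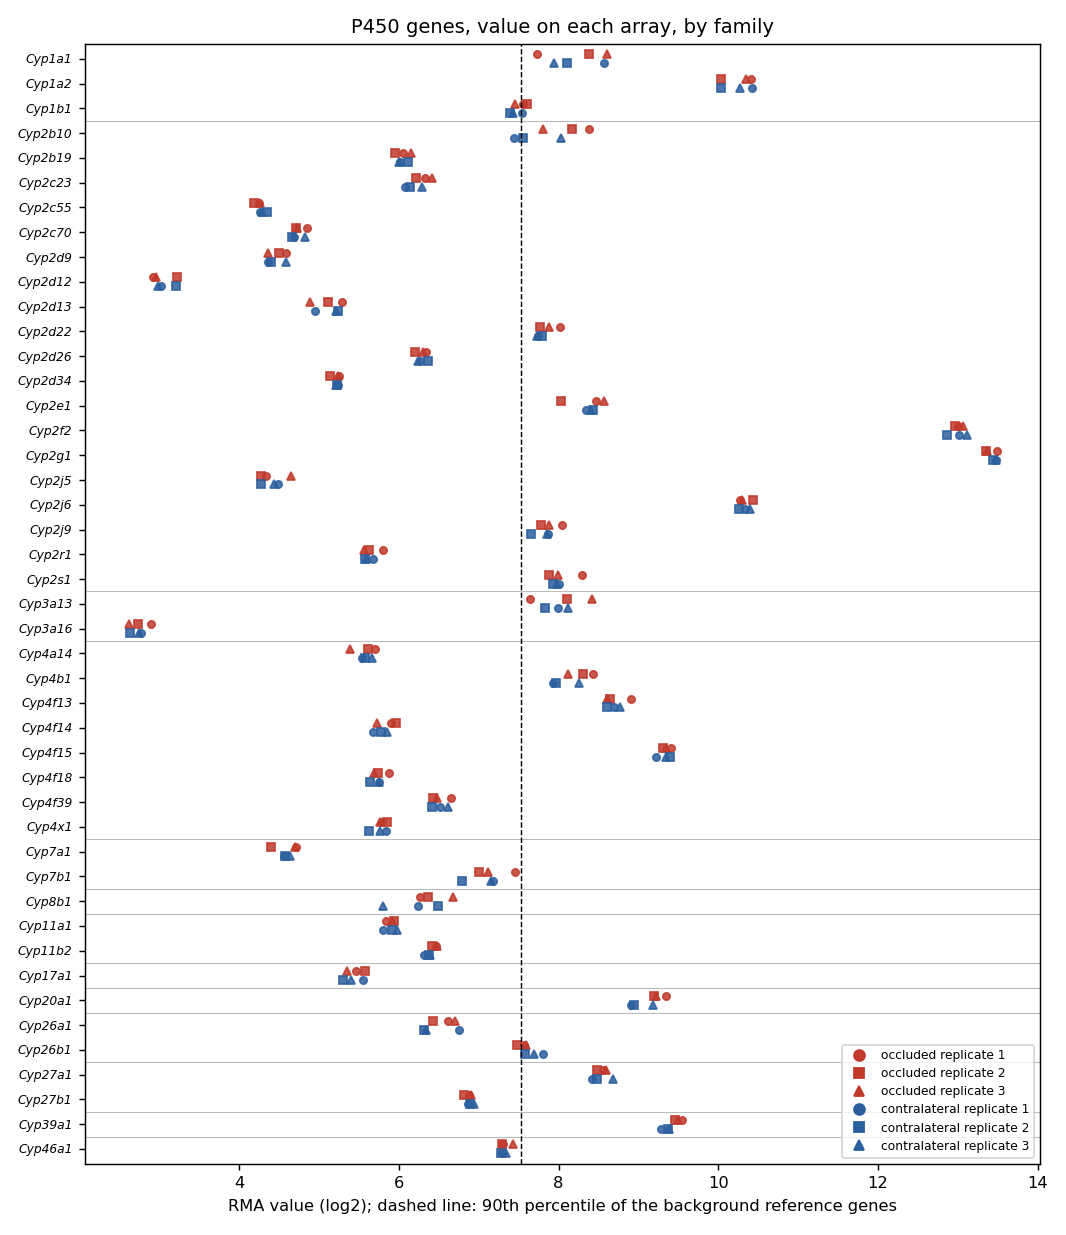
RMA log2 value of each of the 45 P450 genes on each array, occluded arrays in red in the upper row of each gene and contralateral arrays in blue in the lower row, with a dashed line at 7.53, the 90th percentile of the background reference genes. Signals of different probe sets cannot be set against each other; within a gene the red and blue points overlap except in Cyp2c55, Cyp11b2, Cyp20a1 and Cyp39a1.

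Cyp1a1, the enzyme most strongly induced through the aryl hydrocarbon receptor, varied between arrays more than it differed between the sides. It was at 7.74, 8.38 and 8.61 on the occluded side (mean 8.24 ± 0.45, SD, n = 3), against 8.57, 8.11 and 7.95 on the contralateral side (mean 8.21 ± 0.32, SD, n = 3). Its SD within sides, 0.39, was larger than that of 91.7% of all probe sets and the highest of the members. The difference was 0.03 (interval -0.58 to 0.65); it was 0.29 without occluded replicate 1, and its sign turned without occluded replicate 2 (-0.04) or 3 (-0.15), without contralateral replicate 2 (-0.02) or 3 (-0.10) and under the 3 other scalings. Cyp1a2, beside it in the genome, had an SD of 0.20, and Cyp1b1, an oestrogen and hydrocarbon hydroxylase, one of 0.08 at a level not above the background reference. Cyp1b1 was at 7.55, 7.60 and 7.46 on the occluded side, against 7.55, 7.39 and 7.42 on the contralateral side, and the sides overlapped. The receptor Ahr itself had a difference of 0.01, its repressor Ahrr one of -0.05 and Tiparp, another target of the receptor, one of -0.01.

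Of the 8 gland markers measured, 4 were lowest on the same pair of arrays as Cyp1a1, and the 3 with the widest span are given here. The share of all probe sets that were lowest on that pair was not counted, so how common the pattern is on these arrays is not known. Obp2a, an odorant-binding protein of nasal glands, was at 7.88, 12.01 and 10.94 on the occluded side, against 11.86, 10.32 and 8.58 on the contralateral side. Lcn3, a lipocalin of nasal and vomeronasal glands, was at 7.67, 9.57 and 10.89 on the occluded side, against 11.46, 9.85 and 8.40 on the contralateral side. Dmbt1, a secreted scavenger receptor, was at 6.77, 9.79 and 9.18 on the occluded side, against 8.67, 7.76 and 6.64 on the contralateral side. Occluded replicate 1 and contralateral replicate 3 were the 2 lowest arrays for Cyp1a1, for each of these 3 genes and for Ltf, the secreted iron-binding lactoferrin. Over the 8 of 10 gland markers measured, which these 4 dominate, the mean deviation from each gene's own mean was -0.75, 0.49 and 0.50 on the occluded arrays and 0.50, -0.13 and -0.62 on the contralateral arrays. The other 4 markers did not share the pattern. Aqp5, a water channel, Sox9, a transcription factor of gland cells, and Bpifa1, an abundant secreted protein, lay above their own means on occluded replicate 1, and Lcn4 was far under the background reference. Bpifa1 was at 13.47, 13.52 and 13.37 on the occluded side, against 13.21, 13.41 and 13.43 on the contralateral side. The part of the glands in the values of Cyp1a1 was not tested.

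Cyp3a13, the steroid and drug hydroxylase of family 3 outside its main gene cluster, was at 7.65, 8.11 and 8.42 on the occluded side, against 8.00, 7.83 and 8.12 on the contralateral side. Occluded replicate 1 was again the lowest array, and the difference was 0.08 (interval -0.40 to 0.55), or 0.28 without that array and -0.10 without occluded replicate 3. The other family 3 member, Cyp3a16, known from fetal liver, had values of 2.62 to 2.90 on the occluded side and 2.63 to 2.77 on the contralateral side, far under the background reference.

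**Figure D3:**
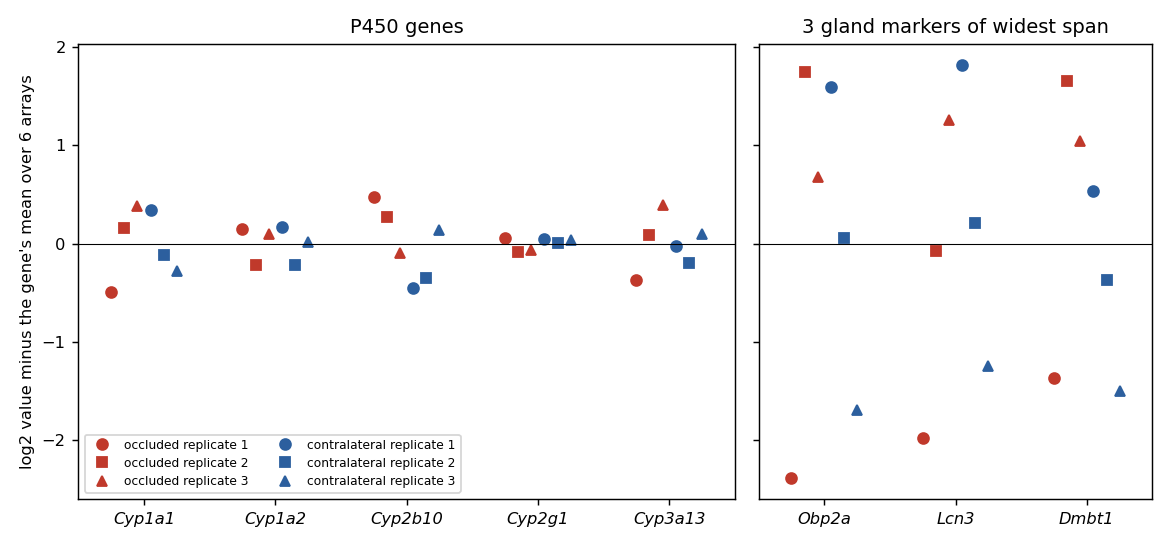
Log2 value on each array minus the mean of the gene over 6 arrays, for 5 P450 genes (left) and the 3 of 8 gland markers with the widest span (right), occluded arrays in red and contralateral arrays in blue, with 1 symbol shape per replicate number. Occluded replicate 1 (red circle) and contralateral replicate 3 (blue triangle) are the 2 lowest points of Cyp1a1, Obp2a, Lcn3 and Dmbt1, while Cyp2g1 spans 0.14.

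In family 2, 12 of 19 genes had a difference above 0 and 7 below, with a median of 0.01, which turned to -0.07 with centred arrays and -0.02 with quantile normalization. Cyp2b10, the phenobarbital-inducible target of the nuclear receptor Car, had the largest difference of the members. It was at 8.38, 8.17 and 7.81 on the occluded side, against 7.44, 7.55 and 8.04 on the contralateral side. Occluded replicate 3 lay below contralateral replicate 3, and the difference of 0.44 had an interval from -0.05 to 0.93 (limma adjusted p = 0.823). Over the arrays left out in turn it ran from 0.31 without occluded replicate 1 to 0.62 without contralateral replicate 3. The Car gene, Nr1i3, had a difference of 0.02 and the pregnane X receptor gene Nr1i2 one of 0.02, both at levels under the background reference.

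Cyp2b10 and Cyp4b1 had the same order of arrays on each side, and contralateral replicate 3 was the highest contralateral array for both. Markers of respiratory ciliated cells had that order on the contralateral side in their mean, but not on the occluded side: their mean deviation was 0.05, 0.25 and -0.01 on the occluded arrays, against -0.24, -0.21 and 0.16 on the contralateral arrays (7 of 9 measured). Their mean level ran from 8.64 to 8.90 on the log2 scale on the occluded side and from 8.41 to 8.80 on the contralateral side. Contralateral replicate 3 was the highest contralateral array for all 7 markers, and 4 of them had the full contralateral order of Cyp2b10 and Cyp4b1. That array also had the highest median over all probe sets on its side, 8.00 against 7.97 and 7.94 for contralateral replicates 1 and 2. A high contralateral replicate 3 is thus not particular to these genes, and the share of all probe sets with this order was not counted. On the occluded side only 1 of the 7, Rsph1, shared their order, and Dnah5, an outer arm dynein of motile cilia, was at 8.75, 9.63 and 8.81 there, against 8.38, 8.75 and 9.14 on the contralateral side. The part of these cells in the values of Cyp2b10 and Cyp4b1 was not tested. Without contralateral replicate 3, Cyp2b10, Cyp4b1 (0.33) and Cyp20a1 (0.33) had an unadjusted p under 0.05, and the lowest adjusted p of any member was 0.710.

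Epoxygenases of the Cyp2j group make signalling lipids from arachidonic acid. Cyp2j6 was at 10.28, 10.43 and 10.29 on the occluded side, against 10.34, 10.26 and 10.40 on the contralateral side, a difference of 0.00 (interval -0.22 to 0.22). Cyp2j9 was at 8.04, 7.78 and 7.88 on the occluded side, against 7.87, 7.66 and 7.85 on the contralateral side, and Cyp2j5, under the background reference, had a difference of 0.02. The sides overlapped in all 3. Cyp2s1, an epithelial enzyme of retinoid and lipid peroxide metabolism, was at 8.29, 7.88 and 7.99 on the occluded side, against 8.00, 7.93 and 7.98 on the contralateral side. Its highest value was again occluded replicate 1, and the difference of 0.08 was -0.03 without it.

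Of the 6 Cyp2d members, relatives of the human debrisoquine hydroxylase, Cyp2d22 alone was above the background reference. It was at 8.02, 7.77 and 7.89 on the occluded side, against 7.74, 7.80 and 7.73 on the contralateral side, a difference of 0.14 (interval -0.10 to 0.37), or 0.07 without occluded replicate 1. Cyp2d9, Cyp2d12, Cyp2d13, Cyp2d26 and Cyp2d34 had differences between -0.04 and 0.03. The Cyp2c members Cyp2c23, Cyp2c55 and Cyp2c70, whose relatives are drug-metabolising enzymes and epoxygenases of liver and kidney, had differences of 0.15, -0.07 and 0.04, all under the background reference. In Cyp2c55 the sides did not overlap, with 4.25, 4.18 and 4.26 on the occluded side, against 4.26, 4.35 and 4.29 on the contralateral side. That made 1 of 45 members with all occluded arrays lower, beside 3.24% of all probe sets, at a level under the background reference. Cyp2b19, of keratinocytes, had a difference of 0.01.

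Family 4 enzymes hydroxylate fatty acids at the end of the chain. Of its 8 members 7 had a difference above 0 and 1 below, with a median of 0.04, or -0.03 with centred arrays. Cyp4f13 was at 8.91, 8.65 and 8.60 on the occluded side, against 8.70, 8.61 and 8.78 on the contralateral side. Cyp4f15 was at 9.40, 9.31 and 9.35 on the occluded side, against 9.22, 9.39 and 9.35 on the contralateral side. Both differed by 0.03, and their sides overlapped. Cyp4a14, a target of the fatty acid receptor PPAR alpha, had a difference of -0.02, and Cyp4f14, Cyp4f18, Cyp4f39 and Cyp4x1 lay between 0.00 and 0.10, all 5 not above the background reference.

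Among sterol and bile acid enzymes, Cyp39a1, which hydroxylates 24-hydroxycholesterol, kept its sides apart. It was at 9.54, 9.45 and 9.49 on the occluded side, against 9.29, 9.37 and 9.39 on the contralateral side. The difference was 0.15 (interval -0.05 to 0.35, limma adjusted p = 0.823), and it was 0.07 with centred arrays and 0.06 after cyclic loess. Cyp27a1, the mitochondrial sterol 27-hydroxylase, was at 8.55, 8.48 and 8.59 on the occluded side, against 8.42, 8.49 and 8.68 on the contralateral side, with a difference of 0.02. The rest of the group lay under the background reference. Cyp7b1, an oxysterol hydroxylase, differed by 0.15 (interval -0.23 to 0.54), but by 0.02 without occluded replicate 1 and 0.03 without contralateral replicate 2. Cyp46a1, the brain cholesterol 24-hydroxylase, differed by 0.03. Cyp7a1, the rate-limiting enzyme of bile acid synthesis in liver, differed by 0.01. Cyp8b1, which sets the kind of bile acid made in liver, was at 6.26, 6.36 and 6.68 on the occluded side, against 6.24, 6.49 and 5.80 on the contralateral side. Its difference of 0.26 was 0.07 without contralateral replicate 3, the lowest array.

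Cyp20a1, a conserved P450 with no settled substrate, had the smallest unadjusted p of the members. It was at 9.35, 9.20 and 9.22 on the occluded side, against 8.91, 8.95 and 9.18 on the contralateral side. The lowest occluded array lay just above the highest contralateral one, and the difference was 0.25 (interval -0.01 to 0.50, limma adjusted p = 0.823). With centred arrays it was 0.17 and after cyclic loess 0.16. Cyp20a1, Cyp39a1 and Cyp11b2 were the 3 of 45 members with all occluded arrays above all contralateral ones, beside 7.49% of all probe sets.

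The enzymes of hormone synthesis and of vitamin D lay under the background reference. Cyp11a1, which cuts the side chain of cholesterol to start steroid synthesis, was between 5.84 and 5.94 on the occluded side and between 5.80 and 5.97 on the contralateral side. Cyp11b2, the aldosterone synthase, was at 6.47, 6.41 and 6.48 on the occluded side, against 6.32, 6.37 and 6.40 on the contralateral side, a difference of 0.09 (interval -0.10 to 0.28). Cyp17a1, of androgen synthesis, differed by 0.04. Cyp27b1, the vitamin D 1-alpha-hydroxylase, differed by -0.03 and Cyp2r1, a vitamin D 25-hydroxylase, by 0.06.

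Cyp26 enzymes break down retinoic acid, which guides renewal and zone identity in olfactory epithelium. Cyp26b1 had the lowest difference of the members. It was at 7.56, 7.48 and 7.59 on the occluded side, against 7.81, 7.58 and 7.69 on the contralateral side. The highest occluded array lay just above the lowest contralateral one, and the difference was -0.15 (interval -0.37 to 0.08, limma adjusted p = 0.823). It was -0.09 without contralateral replicate 1, the highest array. It was -0.23 with centred arrays and -0.21 after cyclic loess, where its unadjusted p was under 0.05, as with quantile normalization, with an adjusted p of at least 0.771. Its mean, 7.62, lay just above the background reference. Cyp26a1 was at 6.62, 6.43 and 6.70 on the occluded side, against 6.75, 6.31 and 6.34 on the contralateral side, below that reference. Over 8 of 11 genes of retinoid handling the median was 0.15, or 0.00 without occluded replicate 1, with Rdh10, which makes retinaldehyde, at 0.21 and Rbp4, the retinol carrier, at 0.45, or 0.08 without occluded replicate 1.

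Partners of the P450 enzymes also held no probe set past the test. Electron donors, listed together with the P450 partner Pgrmc1 (6 of 9 measured), had a median difference of 0.06, with 5 above 0, but -0.02 without occluded replicate 1. P450 oxidoreductase was not among the 6 measured, so nothing is said here of that donor. Pgrmc1, at -0.05, was the 1 gene below 0. Cyb5a, cytochrome b5, was at 12.07, 12.03 and 12.11 on the occluded side, against 11.89, 11.77 and 11.96 on the contralateral side, a difference of 0.20 (interval -0.02 to 0.41). In Cyb5a, alone of the 6, all occluded arrays lay above all contralateral ones (limma adjusted p = 0.823), beside 7.49% of all probe sets. Fdx1, the mitochondrial ferredoxin, differed by 0.15, or 0.09 without contralateral replicate 2. Cyb5r3, a cytochrome b5 reductase, differed by 0.09, and its sign turned without occluded replicate 1 (-0.05). Haem synthesis genes (7 of 8 measured) had a median of 0.13, with 6 above 0, or 0.07 without occluded replicate 1. Fech, which puts iron into haem, was at 0.23, Alas1, the rate-limiting step, at 0.00, and Urod at 0.20, or 0.09 without that array. The 4 haem breakdown genes had a median of 0.17, or 0.08 without occluded replicate 1, with Blvrb, a biliverdin reductase, at 0.23, or 0.11 without that array. None of these lists held a gene at an unadjusted p under 0.05.

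All 15 regulators were measured, with a median of 0.06, 12 above 0 and 0 at an unadjusted p under 0.05, and a median of 0.01 without occluded replicate 1. Of the nuclear factor I genes, Nfia was at 0.19, Nfic at 0.26, Nfix at 0.12 and Nfib at -0.06. Without occluded replicate 1 Nfia was at 0.09, Nfic at 0.10, Nfix at -0.04 and Nfib at -0.09. Other phase 1 enzymes (24 of 26 measured) had a median of 0.11, or 0.05 without occluded replicate 1. Ephx2, a soluble epoxide hydrolase under the background reference, was at 0.34 (limma adjusted p = 0.823), or 0.22 without that array and 0.08 with array weights. Ephx1, the microsomal epoxide hydrolase, was at 0.17, or 0.05 without that array, and Ces1d, a carboxylesterase, at 0.17. Sterol synthesis genes (15 of 19 measured) had differences above 0 in all 15, and in 12 with centred arrays, with a median of 0.17, or 0.09 with centred arrays and 0.11 without occluded replicate 1. Insig1, a sensor that restrains sterol synthesis, was the 1 of 15 at an unadjusted p under 0.05, beside 5.28% of all probe sets. It was at 11.29, 11.28 and 11.37 on the occluded side, against 11.01, 11.00 and 11.10 on the contralateral side, a difference of 0.28 (limma adjusted p = 0.823). Cyp51, the lanosterol demethylase of this pathway, differed by 0.23 (interval -0.02 to 0.48), or 0.15 without contralateral replicate 1.

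Hepatocyte markers, listed since many P450 genes are best known from liver, were not above the background reference in any of the 5 of 8 genes measured: their mean level ran from 5.83 to 6.18 on the occluded side and from 5.90 to 5.93 on the contralateral side, and Alb, albumin, lay between 5.74 and 5.87 on all arrays. Macrophage and endothelial markers had medians of 0.42 and 0.36, or 0.24 and 0.18 without occluded replicate 1, larger than the median of the P450 genes. The part of these cells in the P450 values was not tested. The median of all probe sets, 0.06, was also above that of the P450 genes, 0.03, and it fell to 0.02 without occluded replicate 1.

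**Figure D4:**
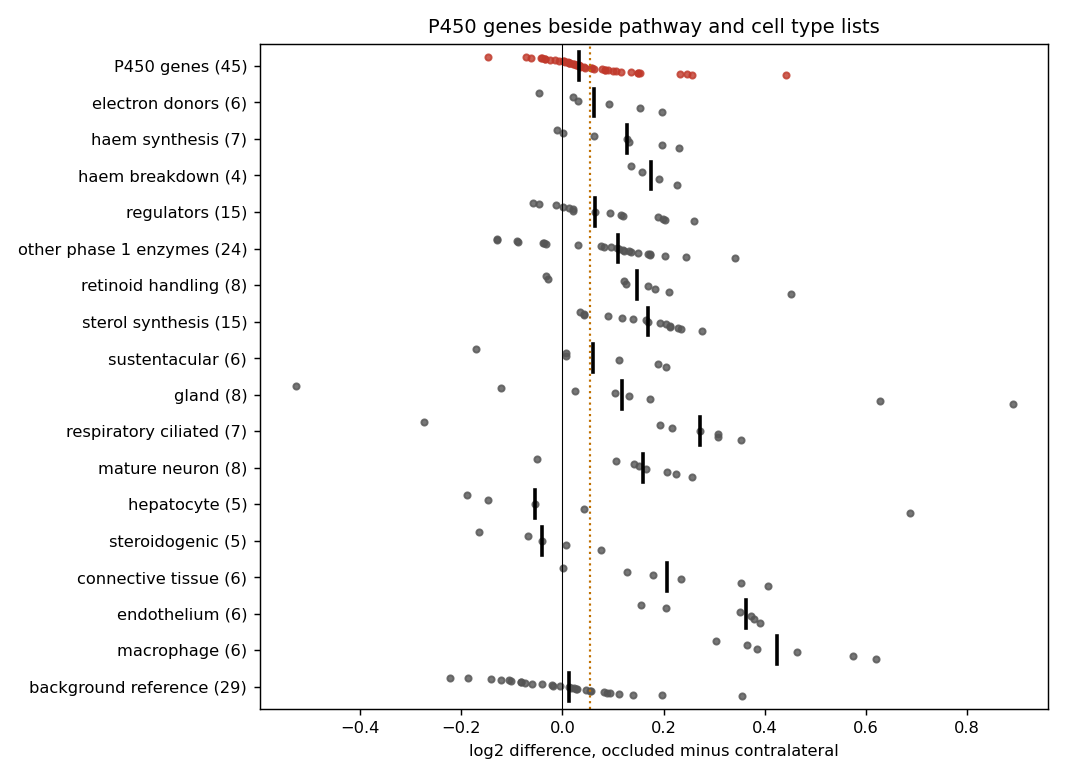
Log2 difference (occluded minus contralateral) of the 45 P450 genes in red and of the measured genes of each pathway or cell type list in grey, 1 point per gene, with a bar at each list's median, a solid line at 0 and a dotted line at 0.06, the median of all probe sets. The P450 genes cluster near 0 with a median of 0.03, and the macrophage and endothelium lists have the highest medians.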

How the data were processed

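The 6 arrays, of total RNA from olfactory epithelium, were of the Affymetrix type Mouse Exon 1.0 ST. As stated per the labels, the authors ran RMA through Expression Console, restricted to core genes, and deposited log2 values. The base was read from the value range; no software version was found in the labels. Arrays have no read depth, and their number limits the precision. Samples were grouped by title. Of 23332 probe sets, 14996 carried 1 gene symbol in the platform annotation, 1019 several and 7317 none; all 45 members matched RefSeq (GRCm38.p6) by Entrez identifier with the same symbol.

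The sides were compared over all probe sets with limma 3.58.1 in R 4.3.3 (lmFit, eBayes, two-sided, no replicate block, Benjamini-Hochberg, threshold 0.05), and the fit was checked on simulated data. There it recovered 12.6% of log2 differences of 0.5, 64.1% of those of 1 and 90.1% of those of 2. Changed probe sets had been planted there, with noise drawn independently for each probe set and array, unlike the real arrays. The rates thus hold for that setting only. Most differences of 0.5 were missed in it, and the largest of the members was 0.44. The level floor was the 90th percentile of the background reference genes. Genes were named by a rule that took the 6 members per direction with the smallest p, the measured nasal, aryl hydrocarbon, retinoic acid, vitamin D and steroid enzymes, the 10 members with the highest mean, the highest of each family, and 3 genes per pathway list; the remaining members are printed to account for all 45, and the other marker, gland and regulator genes were picked after their values were seen. The members and lists were chosen with earlier results of these data known. Other settings tried were 3 scalings, a replicate block, the omission of single arrays, filters, 2 eBayes settings, array weights and another threshold.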

Additional observations from a re-analysis of the deposited data

How the results depend on the processing

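The count of P450 genes past the threshold was 0 under each of the 15 other fits and at an adjusted p under 0.1, and the lowest adjusted p of any member was 0.102, for Cyp2c23 with array weights. The count at an unadjusted p under 0.05 was 0 to 3 as each array was left out, 1 with centred arrays, quantile normalization, cyclic loess or eBayes with trend, 2 with 1-symbol probe sets only and 6 with array weights. Over the whole array 1 probe set was called with 1-symbol probe sets only, 62 with array weights, and 0 to 1 as each array was left out. The weight of occluded replicate 3 was 7.02, against 0.22 and 0.57 for occluded replicates 1 and 2. Values with array weights thus rest largely on 1 occluded array. Centring moved the median of family 2 to -0.0668 and of family 4 to -0.0343. A sign turned in 21 of 45 members with centring, 14 with quantile normalization, 8 with cyclic loess and 14 with array weights. As each array was left out, a sign turned in 4 to 13 members. No turned value was past 0.15 in size. Centring lowers every difference by the same amount, so differences just above 0 turn by arithmetic. The cause of the other turns was not tested. With the same-numbered arrays as a block (replicate block), 0 P450 genes were called, the members' median was 0.03 and no sign turned. Deviations of same-numbered arrays correlated at 0.01, 0.17 and -0.04, and those of differently numbered arrays at -0.17 to 0.15. With so few arrays per side these values do not settle which arrays share a mouse. The labels do not tie arrays to mice, so the numbers were not taken as pairs. No member had several probe sets, so averaging them could not be run. Without the lowest 25% of probe sets 22 members were tested. Small differences of the 27 dim members are limited by signal over background.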
